A study of Mus musculus with 6 samples.

Results

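The 10 genes described here are 5 components of the oxygen-sensing pathway (Hif1a, Epas1, Arnt, Egln1 and Vhl) and 5 of its transcriptional targets (Egln3, Bnip3, Ndrg1, Pdk1 and Ankrd37). They were taken by name from the 20822 genes of a Drop-seq count table, and all 10 were present in it. Drop-seq captures the polyadenylated RNA of single cells in droplets and counts it in unique molecular identifiers (UMIs). The cells came from mouse retinas at postnatal day 14 of oxygen-induced retinopathy (OIR), in which pups are kept in high oxygen and then returned to room air, and they were enriched for endothelial cells (ECs) with beads against CD31. 3 replicates were eNOS+/+ (C57BL/6J) and 3 were eNOS-/-, which were backcrossed to that strain and lack endothelial nitric oxide synthase, and each replicate pooled 3 to 5 retinas. Both genotypes went through OIR and no retina kept in room air throughout was analysed here, so the values below are levels at 1 time and not changes caused by low oxygen. The question was which retinal cell types carried transcripts of the hypoxia pathway at this stage, and whether the genotypes differed.

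Hypoxia-inducible factors pair an oxygen-regulated subunit, encoded by Hif1a or Epas1, with the constant subunit encoded by Arnt. Where oxygen is present, the prolyl hydroxylases encoded by Egln1 and Egln3 mark the regulated subunit, and the Vhl protein, the recognition part of a ubiquitin ligase, then sends it to degradation. Much of this control acts on protein, so transcript levels of Hif1a and Epas1 do not measure factor activity, whereas the target genes are read as its output. In OIR, loss of vessels during high oxygen leaves the inner retina poorly perfused after return to room air, and new vessels then grow, led by tip ECs.

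The targets are bound by the factors at a hypoxia response element, whose core reads ACGTG or GCGTG on either strand. The 250 bases before the gene start, from RefSeq on GRCm38.p6, are shown for the 4 target genes that have such a window in the table used (for Pdk1, the first of 2), because these genes are the readout of the sections below. Capitals mark each core, also where it lies on the other strand and reads CACGT or CACGC, and overlapping matches, as in CACGTG, are each counted. The windows are chr8:45999851-46000100 (minus strand) for Ankrd37, chr7:138909507-138909756 (minus) for Bnip3, chr12:54203875-54204124 (minus) for Egln3 and chr2:71872974-71873223 (plus) for Pdk1.
Ankrd37: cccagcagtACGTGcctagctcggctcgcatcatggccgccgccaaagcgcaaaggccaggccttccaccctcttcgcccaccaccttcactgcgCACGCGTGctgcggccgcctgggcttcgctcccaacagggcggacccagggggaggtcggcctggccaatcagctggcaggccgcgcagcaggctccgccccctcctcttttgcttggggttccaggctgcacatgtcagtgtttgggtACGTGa
Bnip3: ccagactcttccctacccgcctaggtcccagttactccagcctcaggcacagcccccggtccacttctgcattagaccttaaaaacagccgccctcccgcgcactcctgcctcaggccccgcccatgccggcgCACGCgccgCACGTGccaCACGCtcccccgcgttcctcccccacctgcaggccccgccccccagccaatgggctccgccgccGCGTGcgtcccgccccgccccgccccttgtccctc
Egln3: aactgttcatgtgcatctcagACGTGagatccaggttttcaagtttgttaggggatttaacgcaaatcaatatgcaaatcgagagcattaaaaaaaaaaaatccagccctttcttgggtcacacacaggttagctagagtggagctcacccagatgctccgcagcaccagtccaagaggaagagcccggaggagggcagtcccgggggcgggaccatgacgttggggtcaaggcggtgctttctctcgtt
Pdk1: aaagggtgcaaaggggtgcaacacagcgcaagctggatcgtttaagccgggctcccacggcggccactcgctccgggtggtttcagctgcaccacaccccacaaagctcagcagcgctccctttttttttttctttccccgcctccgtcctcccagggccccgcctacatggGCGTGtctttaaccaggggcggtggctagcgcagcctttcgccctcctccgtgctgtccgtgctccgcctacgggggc

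There were 5 matches in the Bnip3 window, 4 in the Ankrd37 window, 1 in the Egln3 window and 1 in the Pdk1 window. For comparison, 38.6% of all 32851 windows of this length held at least 1 match and 16.7% held at least 2. A match is a description of the letters and not a bound site. The other windows read were those of Hif1a with 3 matches, Egln1 with 2, Arnt with 1 and Vhl with 0, and a further window of Pdk1 with 0, chr2:71874654-71874903 (plus).

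The 8944 cells held 10361314 UMIs, from 617246 to 3350799 per replicate, and UMIs were summed over the cells of each cell type in each replicate. Levels are given as UMIs per 1000000 UMIs of such a sum (CPM). Levels of single genes are compared between cell types and not with those of other genes. The exception is the sum of the 5 targets, where the share of single genes is given to describe the sum. Sums of fewer than 10 cells were left out, which leaves 1 sum for cones, so that their values carry no replicate error. The cell types are those the authors assigned, and the cells they labelled only ECs are called Structural ECs, the study's name for ECs that are neither tip nor proliferative. The markers checked were highest in the type they mark, except Syt1 of the Neurons, which was higher in the single cone sum. The Neurons carried bipolar cell markers (Trpm1, Pcp2, Grm6), and Gad1 and Slc6a9 were near 0 in them. Because cell types were defined from the same UMIs, differences between them are described without a test, with the number of replicates that share a direction and the share of all genes that do so. The Structural ECs of eNOS-/- replicate 3 held 3737 CPM of mural markers, against 12.5 to 160.1 CPM in the other 5 sums. Those of eNOS-/- replicate 2 held 602 CPM of rod markers, against 33.6 to 217 CPM in the others. Mural markers also stood at 6360 CPM in the Neurons of eNOS-/- replicate 3, beside 8033 CPM of neuron markers, and at 2783 CPM in the Immune cells of eNOS+/+ replicate 3. They did not exceed 376 CPM in the other sums of these 2 types. In Neuroglia they stood at 1878 CPM in eNOS-/- replicate 1 and 1293 CPM in eNOS+/+ replicate 2. The Rods of eNOS+/+ replicate 3 held 2953 CPM of EC markers, against 617 to 1195 CPM in the other Rods sums. Markers of retinal pigment epithelium reached 9008 CPM in Immune cells and 3945 CPM in Optc+ cells. In Optc+ cells the only one of these markers found was Pmel, at a mean of 3482 CPM in eNOS-/- and 3.77 CPM in eNOS+/+. The part of all these markers in the levels below was not tested. Structural ECs also held erythroid markers at 34.9 to 22522 CPM. Nos3, the gene for eNOS, gave 19.4, 36.6 and 23.6 CPM in the ECs of the eNOS+/+ replicates and 21.2, 16.1 and 32.8 CPM in those of the eNOS-/- replicates. It does not separate the genotypes, and whether these 3′ reads lie outside the altered part of the gene was not checked, so it does not serve as a check of the labels. In 3 pairs of libraries, 1 cell barcode was shared between an eNOS+/+ and an eNOS-/- library.

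Hif1a, which encodes the oxygen-regulated subunit found in most tissues, was highest in photoreceptors and interneurons. Its level was 391 ± 159 CPM in Rods (SD, n = 5), 275 ± 74.0 CPM in Neurons (n = 6) and 177 ± 98.3 CPM in Optc+ cells (n = 5), a small group named for the gene for opticin. In Rods the sums held 488 and 143 CPM in eNOS+/+ and 419, 349.8 and 557 CPM in eNOS-/-, and the lowest of them, eNOS+/+ replicate 3 with 3 UMIs, still lay above every sum of all ECs. All ECs held 104 ± 15.1 CPM (n = 6), with a range of 88.0 to 125 CPM. Against the ECs of the same replicate, Hif1a was higher in Rods in 5 of 5 replicates and in Neurons in 6 of 6. Over all genes of at least 50 CPM in either type, 13.9% were higher in Rods than in ECs in every replicate and 6.29% were higher in Neurons. Without the Neurons sum that held mural markers, a check chosen after seeing the data, the Neurons mean was 263 ± 76.0 CPM. Tip ECs (113 ± 22.6 CPM) and Structural ECs (108 ± 21.2 CPM) did not separate for Hif1a, with 4 of 6 replicates higher in Tip ECs. Immune cells held the lowest mean, 30.1 ± 41.8 CPM (n = 5; 37.7 ± 44.2 CPM without eNOS+/+ replicate 3), and 3 of their 5 sums held no Hif1a UMI. Hif1a lies across an annotated antisense transcript and shares 9878 bases with the protein-coding gene Gm49321 on the same strand, so a share of its UMIs could belong to either.

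Epas1, which encodes the subunit best known from vessels, was highest in Mural cells, at 601 ± 176 CPM (n = 5), and in Structural ECs, at 468 ± 79.3 CPM (n = 6). Proliferative ECs held 309 ± 68.7 CPM, Neuroglia 281 ± 208 CPM and Tip ECs 272 ± 54.1 CPM. Rods (128 ± 85.6 CPM), Neurons (53.8 ± 73.3 CPM), Immune cells (38.1 ± 64.4 CPM) and Optc+ cells (23.6 ± 16.6 CPM) lay below all of these. In Mural cells it was above the ECs of the same replicate in 5 of 5 replicates, as were 11.8% of all genes. Epas1 was lower than in the ECs of the same replicate in 6 of 6 replicates for Neurons and in 5 of 5 for Rods, Immune cells and Optc+ cells. Of all genes, 22.7%, 31%, 27.2% and 24.4%, respectively, were lower in every replicate of these comparisons. In the order of means, only the steps from Structural to Proliferative ECs and from Tip ECs to Rods exceeded the summed SDs of the neighbours. Hif1a and Epas1 thus had their highest levels in different cells, the former in neurons and photoreceptors and the latter in the vessel wall.

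**Figure D1:**
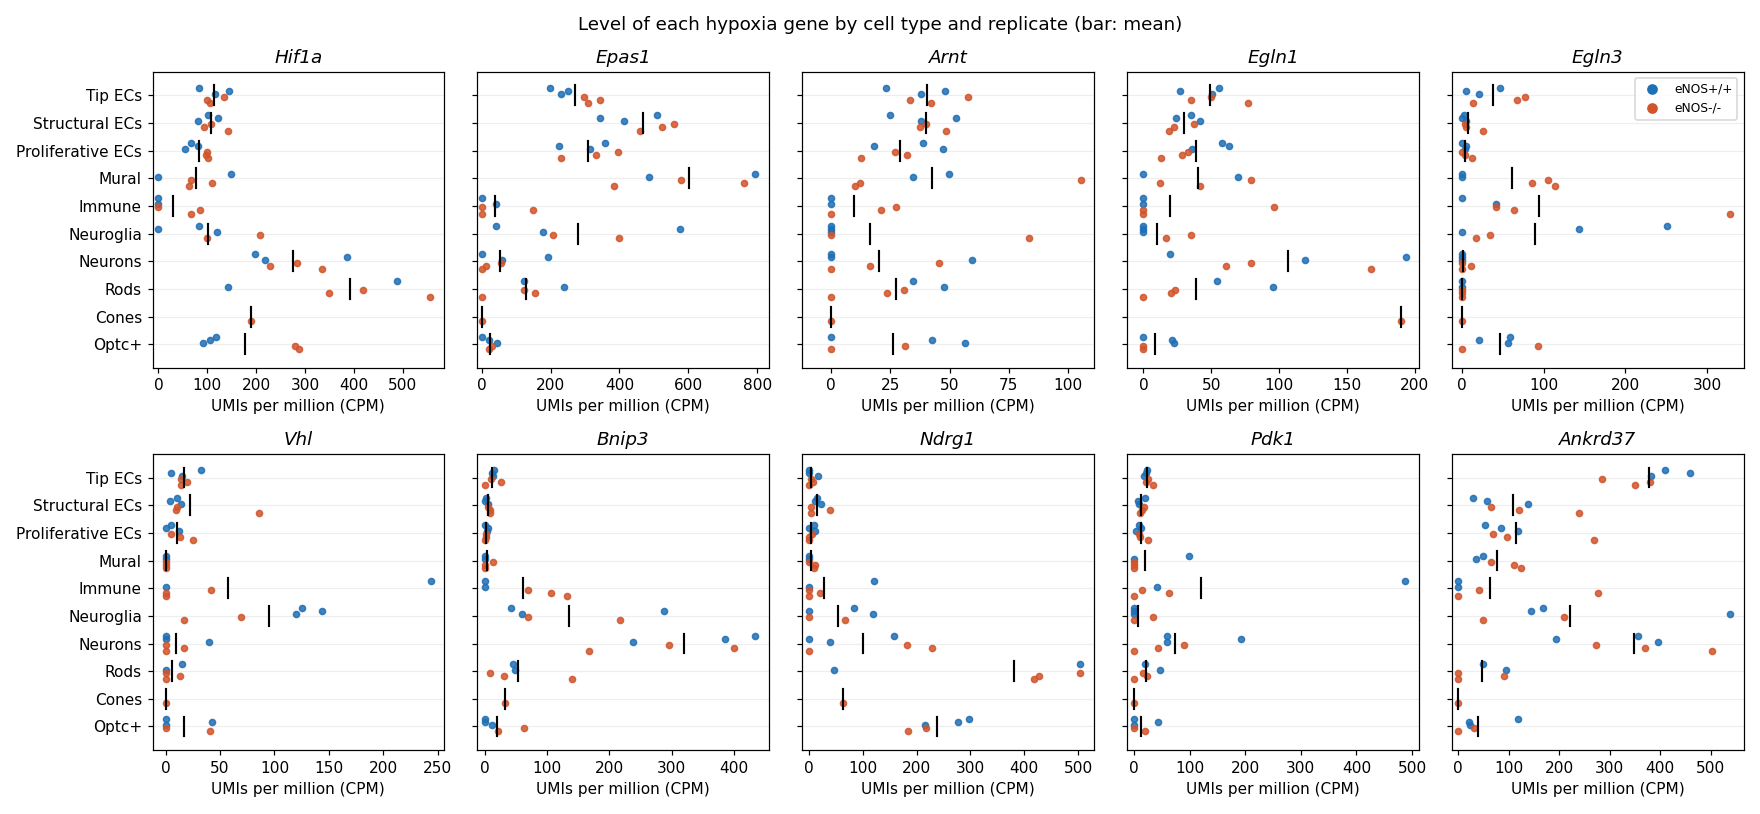
Level of each of the 10 genes in CPM (x axis, 1 scale per gene) by cell type (y axis). Each point is 1 replicate sum of at least 10 cells, coloured by genotype, and the black bar is the mean. Hif1a is highest in Rods, with a mean of 391 CPM, and Epas1 in Mural cells, with 601 CPM, while Ankrd37 has its highest means in Tip ECs (378 CPM) and Neurons (348 CPM).

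Arnt, the constant partner, was low everywhere, with means between 9.76 CPM in Immune cells and 42.5 CPM in Mural cells, and it reached 50 CPM in 0 of 9 types with replicate sums. Its 3 EC types held 29.3 to 40.4 CPM, and their ranges overlapped. Egln1, the main hydroxylase of the pathway, was highest among replicated types in Neurons at 107 ± 65.9 CPM (n = 6), followed by Tip ECs at 49.1 ± 17.5 CPM (n = 6). The single cone sum held 6 Egln1 UMIs, or 190 CPM. Vhl gave 150 UMIs in all cells. Its highest mean was in Neuroglia, 94.9 ± 51.6 CPM (n = 5). Every replicate there lay above its ECs, as did 7.91% of all genes, but these sums held 1 to 3 Vhl UMIs each. In Structural ECs, Vhl stood at 4.05 to 13.9 CPM in 5 sums and at 86.0 CPM in eNOS-/- replicate 3, where 1 cell gave 12 of the 23 UMIs. Without that replicate the mean fell from 22.4 to 9.64 CPM. That sum held the mural markers given above, their part in it was not tested, and Mural cells held no Vhl UMI in any sum.

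Egln3 encodes the hydroxylase that is itself a target of the factors and feeds back on them. Among ECs it was found mainly in Tip ECs, at 46.1, 5.34 and 21.0 CPM in eNOS+/+ and 77.8, 67.1 and 14.0 CPM in eNOS-/-. Structural ECs held 2.5, 0 and 5.04 CPM in eNOS+/+ and 3.49, 4.47 and 26.2 CPM in eNOS-/-. The Tip value was the higher of the pair in 5 of 6 replicates, and the exception was eNOS-/- replicate 3, whose Tip sum held 2 UMIs from 1 cell and whose Structural ECs held the mural markers given above. Without it, the Structural mean fell from 6.94 to 3.10 CPM. Outside ECs, Egln3 was found in Immune cells (95 ± 132 CPM, n = 5), Neuroglia (89.1 ± 106 CPM, n = 5), Mural cells (61.1 ± 56.7 CPM, n = 5) and Optc+ cells (46.1 ± 36.2 CPM, n = 5), with wide spread in each. No Egln3 UMI was found among 656387 UMIs of Rods, which allows a level of up to 4.57 CPM by counting error alone.

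Ankrd37, which encodes a small ankyrin-repeat protein, had its highest means in Tip ECs and Neurons. In Tip ECs it stood at 410.2, 459 and 381 CPM in eNOS+/+ and 285, 380.1 and 351 CPM in eNOS-/-. In Structural ECs of the same replicates it stood at 29.9, 56.7 and 137 CPM in eNOS+/+ and 65.5, 119.8 and 239 CPM in eNOS-/-. The lowest Tip sum lay above the highest Structural sum, and without eNOS-/- replicate 3 the Structural mean was 81.8 ± 45.0 CPM in place of 108 ± 75.8 CPM. Proliferative ECs held 115 ± 78.5 CPM (n = 6). Neurons held 348 ± 106 CPM (n = 6; 317 ± 83.4 CPM without eNOS-/- replicate 3). They lay above the ECs of the same replicate in 6 of 6 replicates, as did 6.29% of all genes. The Neurons value of eNOS+/+ replicate 2 was a single UMI, or 193 CPM. Neuroglia held 221 ± 186 CPM (n = 5), with counts of 1 to 9 UMIs per sum. Rods (47.3 ± 46.8 CPM, 0 in 2 of 5 sums), Mural cells (77.0 ± 38.8 CPM) and Optc+ cells (38.7 ± 46.2 CPM) lay below the ECs of the same replicate in 5 of 5 replicates each, as did 31%, 19.2% and 24.4% of all genes, respectively. The RefSeq window of Ankrd37 shown above lies inside its GENCODE span, chr8:45996902-46005707, so the 2 annotations place its start differently. By the GENCODE span, Ankrd37 overlaps Ufsp2 by 57 bases and Lrp2bp by 6405 bases on the opposite strand. Whether counting used the strand is not given in the sources used here, so a share of its UMIs could belong to these genes. The same limit holds for Bnip3 and Ndrg1, which overlap annotated antisense transcripts.

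Bnip3, a receptor for the removal of mitochondria, was a gene of Neurons in these data. It stood at 434, 386 and 237 CPM in eNOS+/+ Neurons and 295, 401 and 167 CPM in eNOS-/- Neurons, of which the 2nd and the last value rested on 2 and 1 UMIs. The last is the sum that held mural markers, and without it the mean rose from 320.2 to 351 CPM. In all ECs Bnip3 ranged from 4.10 to 11.5 CPM, below every Neurons sum. Neuroglia held 135 ± 110 CPM, Immune cells 61.3 ± 60.2 CPM and Rods 53.9 ± 50.2 CPM. Bnip3 was above the ECs of the same replicate in 6 of 6 replicates for Neurons, 5 of 5 for Rods and 5 of 5 for Neuroglia. Of all genes, 6.29%, 13.9% and 7.91%, respectively, did so. In the Neuroglia sums, however, 1 UMI stood for 16.7 to 144 CPM. In the Rods of eNOS+/+ replicate 3 and eNOS-/- replicate 3 it stood for 47.6 and 139 CPM. A single UMI was thus enough to exceed every sum of all ECs there.

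Ndrg1, a stress-induced gene, was highest in Rods, at 503 and 47.6 CPM in eNOS+/+ and 504, 428 and 418 CPM in eNOS-/-. The low value of eNOS+/+ replicate 3 rested on 1 UMI. Optc+ cells held 238 ± 46.6 CPM (n = 5) with every sum between 185 and 297 CPM, and Neurons held 101 ± 100 CPM. Both Rods and Optc+ cells were above the ECs in 5 of 5 replicates, as were 13.9% of all genes for Rods and 13.7% for Optc+ cells. In the Rods of eNOS+/+ replicate 3, the single UMI was enough to exceed every sum of all ECs. In the 3 EC types the means were 4.58 to 16.1 CPM. The highest EC sum, 38.5 CPM in Structural ECs of eNOS-/- replicate 2, was the one that held the most rod markers, and the part of these markers in it was not tested. Pdk1, the kinase that turns pyruvate away from mitochondria, was low in ECs (24.4 ± 5.68 CPM in Tip ECs and 13.7 ± 4.73 CPM in Structural ECs) and stood at 74.5 ± 65.2 CPM in Neurons. Its highest mean, 121 ± 206 CPM in Immune cells, came from 4 UMIs in eNOS+/+ replicate 1, and the other 4 Immune sums held 0 to 63.7 CPM.

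Summed over the 5 targets, Neurons were highest at 846 ± 155 CPM (n = 6; 882 ± 143 CPM without eNOS-/- replicate 3), followed by Neuroglia at 507 ± 158 CPM (n = 5), Rods at 503 ± 151 CPM (n = 5) and Tip ECs at 457 ± 47.2 CPM (n = 6). Immune cells held 369.7 ± 232 CPM and Optc+ cells 354 ± 94.7 CPM. Mural cells (165 ± 81.4 CPM), Structural ECs (149 ± 84.6 CPM) and Proliferative ECs (138 ± 86.3 CPM) were lowest among replicated types, and the single cone sum held 95 CPM. These means pool both genotypes. In Neuroglia the sum was 612 ± 92.8 CPM in eNOS+/+ (n = 3) and 349 ± 1.63 CPM in eNOS-/- (n = 2). The eNOS-/- values rested on 10 and 21 UMIs, so their small SD does not show a precise level. The eNOS+/+ values rested on 13, 4 and 12 UMIs. In eNOS-/-, Rods stood at 553 ± 23.7 CPM and Tip ECs at 435 ± 58.0 CPM, both above Neuroglia. Mural cells held 91.8 ± 80.7 CPM in eNOS+/+ (n = 2) and 214 ± 32.4 CPM in eNOS-/- (n = 3). The genotypes were not tested on the sum. The step from Neurons to Neuroglia (340 against 313 CPM) and that from Optc+ to Mural cells were larger than the summed SDs of the neighbours. The other steps were not. Some sums rested on few target UMIs. There were 4 in the Neurons of eNOS+/+ replicate 2 and of eNOS-/- replicate 3. The Neuroglia of eNOS+/+ replicate 2 and the Rods of eNOS-/- replicate 3 also held 4, and the Mural cells of eNOS+/+ replicate 3 held 1. The make-up of the sum differed by cell type. Ankrd37 gave 70.8% to 92.5% of it in Tip ECs. In Rods, Ndrg1 gave 74.6% to 95.6% in 4 of 5 sums. Without Ankrd37, Tip ECs fell to 79.7 CPM and Structural ECs to 41.2 CPM, and without Ndrg1, Rods fell to 122 CPM. A high sum therefore stood for different genes in different cells.

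**Figure D2:**
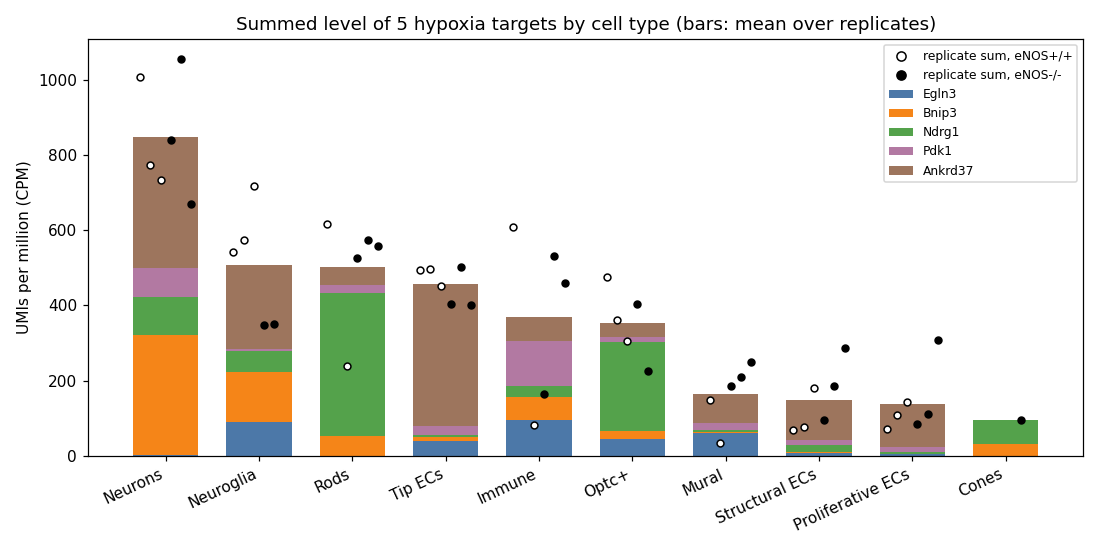
Mean level of the 5 targets stacked by gene (y axis, CPM) for each cell type (x axis, in order of the sum). Points are the sums of single replicates, open for eNOS+/+ and filled for eNOS-/-; cones have 1 sum. Neurons reach 846 CPM through Bnip3 and Ankrd37, Rods 503 CPM mainly through Ndrg1, and Tip ECs 457 CPM mainly through Ankrd37.

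Within the endothelium, Tip ECs were set against Structural ECs of the same replicate, as a mean log2 ratio with 10 CPM added to both values. Ankrd37 was higher in Tip ECs in 6 of 6 replicates, by 1.95 ± 1.03 (SD), or 3.87-fold. Epas1 was lower in 6 of 6, by a log2 ratio of -0.77 ± 0.32. Over the 4168 genes of at least 50 CPM in either type, 12% were higher in every replicate and 11% were lower in every replicate. 99.7% of these genes had a lower ratio than Ankrd37, and 3.98% a lower ratio than Epas1. Below 50 CPM no share of all genes was taken, so the counts of the members there have no share beside them. Egln1 (0.55 ± 0.54) and Pdk1 (0.55 ± 0.34) were higher in 6 of 6. Egln3 (1.39 ± 1.27), Bnip3 (0.53 ± 0.69) and Vhl (0.01 ± 1.05) were higher in 5 of 6, and Ndrg1 (-0.79 ± 0.61) was lower in 6 of 6. From Structural to Proliferative ECs, Epas1 was the higher in Structural ECs in 6 of 6, by 0.59 ± 0.20, where 7.84% of all genes were. Ndrg1 rested on 0 to 8 UMIs per Tip sum. Arnt (-0.01 ± 0.22) and Hif1a (0.06 ± 0.33) had mean ratios near 0, and the mean ratio of Vhl was 0.41 without eNOS-/- replicate 3. Against Proliferative ECs, Ankrd37 was higher in Tip ECs by 1.80 ± 0.80 and Hif1a by 0.41 ± 0.38, both in 6 of 6 replicates, where 14.1% of all genes were. The authors separated these EC types on the same UMIs, so the ratios are descriptions of their clusters.

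**Figure D3:**
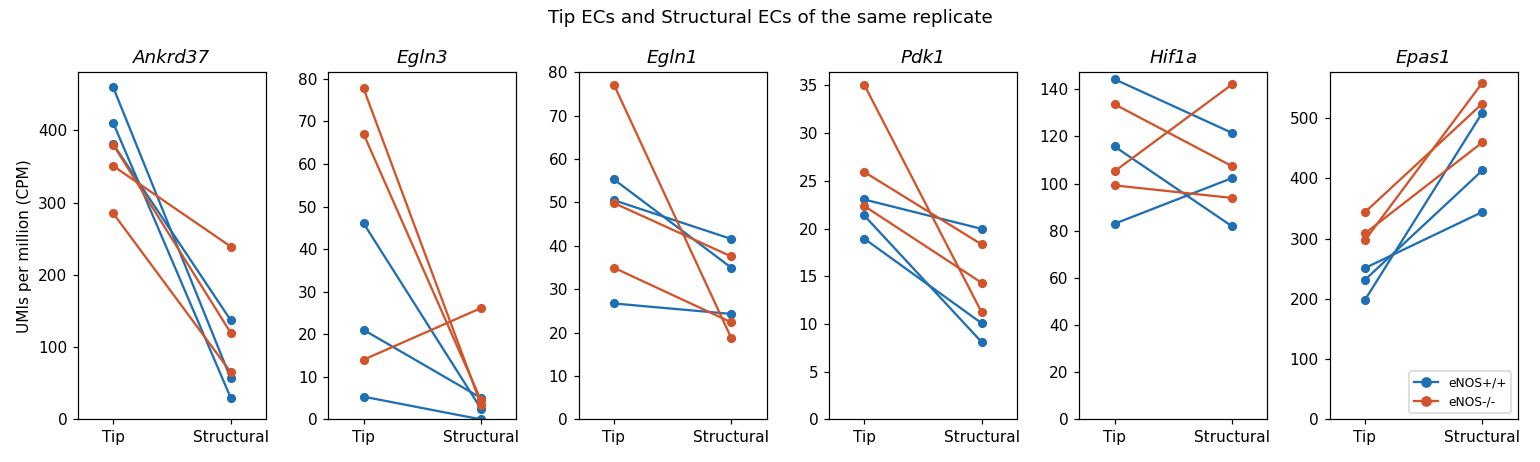
Level of 6 of the genes (y axis, CPM, 1 scale per gene) in Tip ECs and Structural ECs, with a line for each replicate coloured by genotype. Ankrd37 falls and Epas1 rises from Tip to Structural ECs along all 6 lines, Egln3 falls along 5 of 6 lines, and Hif1a has no common direction.

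No member differed between genotypes in any cell type by the quasi-likelihood F test of edgeR, with p-values adjusted (Benjamini-Hochberg) over all genes tested in that type. The 10 cell groups tested were all ECs, the 3 EC types, Mural, Immune, Neuroglia, Neurons, Rods and Optc+. Of the members, 9 had enough UMIs to be tested in all ECs, 6 in Tip ECs, 5 in Structural ECs, 4 in Rods, 3 in Proliferative ECs, 3 in Neurons, 2 in Optc+, 1 in Mural cells and 0 in Immune cells and Neuroglia. At an unadjusted p under 0.05 there were 2 of these 33 values, Egln3 in all ECs and Egln3 in Tip ECs, and DESeq2 gave 0 at the adjusted limit and 1 at the unadjusted one. Of all genes that passed the filter on low counts, 0.0211% of 9483 were called in all ECs and 0.0181% of 5510 in Tip ECs, and 5.78% and 4.95% had an unadjusted p under 0.05. The shares called were 0.0264% in Structural ECs, 0.0217% in Proliferative ECs, 0.032% in Rods, 2.06% in Optc+ cells and 0% in Mural cells, Immune cells, Neuroglia and Neurons. Those at the unadjusted limit were 5.52% in Structural ECs, 6.38% in Proliferative ECs, 5.78% in Mural cells, 4.53% in Immune cells, 5.93% in Neuroglia, 4.18% in Neurons, 1.19% in Rods and 11.1% in Optc+ cells. The genes called in all ECs, named here after their values were seen, were AI506816, lower in eNOS-/-, and the immunoglobulin gene Igkc, higher. The p-values measure the spread between these pools of retinas.

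Egln3 had the largest fold change of the members tested in ECs. In all ECs it stood at 13.3, 3.05 and 9.85 CPM in eNOS+/+ and at 18.6, 22.7 and 20.5 CPM in eNOS-/-, so that every eNOS-/- sum lay above every eNOS+/+ sum, as did 5.39% of all genes tested. The log2 fold change was 1.14 ± 0.42 (SE), with an adjusted p of 0.824 by edgeR. Without eNOS-/- replicate 3, whose ECs held 2166 CPM of mural markers, it was 1.14 with an adjusted p of 0.342, and over 12 alternatives the adjusted p ranged from 0.342 to 1.00. In Tip ECs it was 1.31 ± 0.53, with an adjusted p of 0.796 by edgeR, and the groups overlapped because eNOS-/- replicate 3 stood at 14.0 CPM. Without that replicate it was 1.57, with an adjusted p of 0.149 by edgeR, and without eNOS+/+ replicate 1 it was 1.91, with an adjusted p of 0.363. Over 12 alternatives it ranged from 0.96 to 1.91, and the adjusted p from 0.149 to 1.00. In Mural cells Egln3 was at 0 in both eNOS+/+ sums and at 105, 85.9 and 114 CPM in the eNOS-/- sums. A count of 0 over the eNOS+/+ sums allows up to 61.3 CPM by counting error alone, and the pooled eNOS-/- level was 102 CPM, from 26 UMIs. The gene did not pass the filter on low counts there and was not tested. The eNOS+/+ Mural sums were shallower, with 20148 and 28817 UMIs against 75864 to 96487, and held 14471 to 15833 CPM of mural markers against 25703 to 25931. The part of these differences in the Egln3 values was not tested.

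Epas1 in Tip ECs was higher in every eNOS-/- sum (297, 344 and 309 CPM) than in any eNOS+/+ sum (198, 251 and 231 CPM), as were 4.94% of all genes tested. Its log2 fold change was 0.49 ± 0.25, with a 95% interval of -0.03 to 1.01 and an adjusted p of 0.985 by edgeR. Ankrd37 in Tip ECs went the other way, with every eNOS-/- sum below every eNOS+/+ sum, as for 5.41% of all genes tested, and a log2 fold change of -0.29 ± 0.25 (interval -0.80 to 0.22, adjusted p = 0.985 by edgeR). In Structural ECs its log2 fold change was 0.69 ± 0.49 (interval -0.34 to 1.73, adjusted p = 0.927 by edgeR), and the groups overlapped. The Tip to Structural ratio of Ankrd37 was 2.54 ± 1.02 in eNOS+/+ and 1.36 ± 0.74 in eNOS-/- on the log2 scale (SD, n = 3), with p = 0.30 by a two-sided exact permutation test and 0.889 after adjustment over the 10 members. With 3 replicates against 3, that test cannot go below 0.10. In Proliferative ECs every eNOS-/- sum of Hif1a (98.7, 96.3 and 102 CPM) lay above every eNOS+/+ sum (67.6, 81.0 and 55.2 CPM), as for 5.36% of all genes tested, with a log2 fold change of 0.55 ± 0.33 and an adjusted p of 0.864 by edgeR. For Hif1a in all ECs, the log2 fold change was 0.18 ± 0.21 with an interval of -0.28 to 0.63, and for Egln1 it was -0.36 ± 0.26.

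Outside the endothelium the depth allowed fewer tests. Bnip3 in Neurons had a log2 fold change of 0.05 ± 0.45 and Ndrg1 in Rods one of 0.36 ± 0.56, with adjusted p-values of 1.00 for both by edgeR. In Optc+ cells, Hif1a stood at 119, 106 and 90.6 CPM in eNOS+/+ and at 279.5 and 288 CPM in eNOS-/-, with groups that did not overlap, which gave a log2 fold change of 1.52 ± 0.80 and an adjusted p of 0.473 by edgeR. Of all genes tested in Optc+ cells, 11.4% lay higher in every eNOS-/- sum, and 2.06% were called. These included the pigment cell genes Pmel and Dct, higher in eNOS-/-, and Optc itself, which fell from a mean of 6039 CPM in eNOS+/+ to 2021 CPM in eNOS-/- (adjusted p = 0.0076 by edgeR), all 3 named after their values were seen. The part of these shifts in the Hif1a values was not tested. Members with too few UMIs to test also had groups that did not overlap. They are set here beside the share of genes with at least 1 UMI in that type that also did not pass the filter. These were Egln1 in Proliferative ECs (lower in eNOS-/-, as for 3.39% of such genes) and in Rods with Arnt (lower, 5.48%), Bnip3 in Immune cells (higher, 7.03%) and in Optc+ cells (higher, 8.81%), and in Neuroglia Egln1 (higher, 12.2%) and Vhl (lower, 2.26%). Ankrd37 in Mural cells, at 49.6 and 34.7 CPM in eNOS+/+ and 65.9, 110.4 and 124 CPM in eNOS-/-, was another, as was Egln3 there, with 11.3% of such genes higher.

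**Figure D4:**
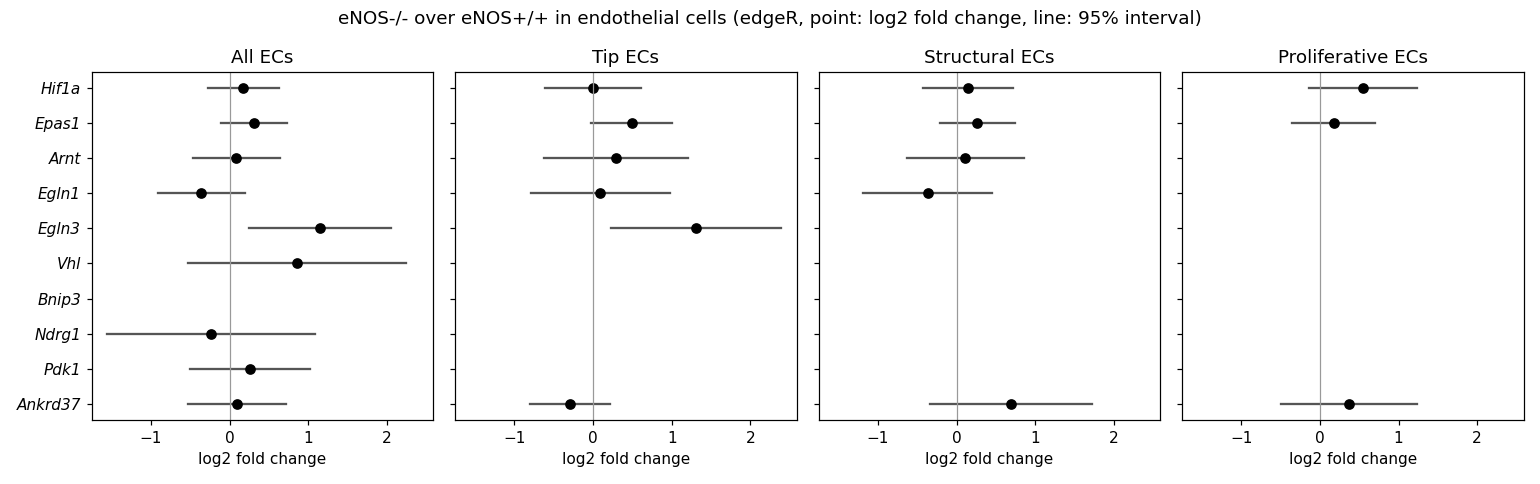
Log2 fold change of eNOS-/- over eNOS+/+ (x axis) for the members tested (y axis) in all ECs and in the 3 EC types, from edgeR. Points are fold changes and lines their 95% intervals, and members without a point had too few UMIs. The interval of Egln3 lies above 0 in all ECs and in Tip ECs before adjustment over all genes, and every other interval includes 0.

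Other genes of the pathway were read from 4 lists, beside the 12% of all genes that were higher and the 11% that were lower in Tip than in Structural ECs in every replicate. Among the glycolytic targets, 14 of 18 reached 50 CPM in Tip or Structural ECs. Of these, 8 were higher in Tip ECs in 6 of 6 replicates (Gpi1, Pfkp, Pfkfb3, Aldoa, Tpi1, Gapdh, Pgam1 and Pkm) and 1 was lower, Slc2a1, the glucose transporter of the blood-retina barrier. Pkm stood at 520.5 ± 57.3 CPM in Tip ECs and 317 ± 39.2 CPM in Structural ECs, while Slc2a1 stood at 694 ± 112 and 1252 ± 185 CPM. The median log2 ratio of the list was 0.36, against -0.04 over all genes. Of 13 other targets at that level, 3 were higher (Higd1a, Car12 and Ccng2) and 2 lower (Ddit4 and Tfrc), with a median of 0.29. Of 8 angiogenic genes, 7 were higher in Tip ECs (Adm, Apln, Angpt2, Cxcr4, Pdgfb, Edn1 and Pgf), of which the first 3 are markers of that type. Of 4 other regulators, Elob was lower and 0 were higher.

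Outside the endothelium, 11 of 15 glycolytic targets were higher in Neuroglia than in the ECs in every replicate, 10 of 16 in Rods and 7 of 17 in Neurons, where the shares of all genes were 7.91%, 13.9% and 6.29%. Ldha, which makes lactate, stood at 1233 ± 377 CPM in Rods, 915 ± 326 CPM in Neurons, 851 ± 394 CPM in Neuroglia and 317 ± 62.0 CPM in all ECs. Slc2a1 was lower than in ECs in every replicate of all 3. Vegfa, the main hypoxia-induced growth factor for vessels, stood at 2154 ± 909 CPM in Neuroglia (n = 5), 188 ± 113 CPM in Neurons and 5.92 ± 4.08 CPM in all ECs. Cited2, a competitor of the factors for their coactivators, was highest in Rods at 233 ± 196 CPM. Between genotypes, 0 genes of the 4 lists passed the adjusted limit in any cell type by edgeR, and at an unadjusted p under 0.05 there were 3 of 53 genes tested in all ECs, 1 of 45 in Tip ECs and 4 of 45 in Structural ECs, where the shares of all genes tested were 5.78%, 4.95% and 5.52%. In the other types there were 2 of 36 in Proliferative ECs, 1 of 22 in Mural cells, 1 of 6 in Immune cells, 1 of 14 in Optc+ cells and 0 in Neuroglia, Neurons and Rods. DESeq2 likewise called 0, with 2, 1 and 2 at the unadjusted limit in all, Tip and Structural ECs.

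**Figure D5:**
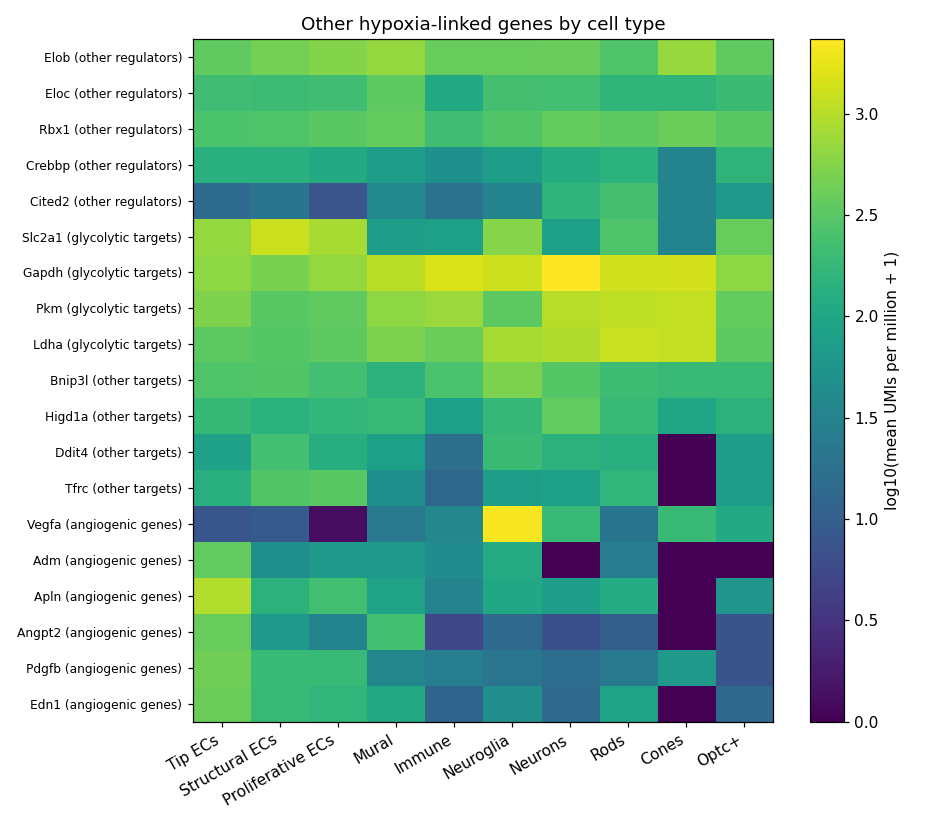
Mean level of the named genes of the 4 other lists (rows) in each cell type (columns), coloured by log10 of CPM plus 1. Vegfa is brightest in Neuroglia (2154 CPM), Slc2a1 in Structural ECs (1252 CPM) and Gapdh in Neurons (2335 CPM), and Adm, Apln and Angpt2 are brightest in Tip ECs.

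The genes with the layout most like each member were found by Pearson's r of log2 CPM over 45 sums, among 4146 genes, as a description. Epas1 was most like Rhoc (r = 0.85), Bgn (0.84) and Pdlim1 (0.81). Ndrg1 was most like Gnb5, Scg5 and H3f3b (0.80 each), and Bnip3 most like Gnao1 (0.79), Scg2 (0.76) and Ndnf (0.76). Hif1a was most like Upf3b (0.79), and Ankrd37 had no gene above Kdm1a (0.69). The sums share libraries and differ in depth, and no pair of members exceeded 0.6.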

How the data were processed

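Drop-seq was run by the authors on 6 pools of retinas, 3 eNOS+/+ and 3 eNOS-/-. Per the labels and the study's methods, reads were aligned with kb-python to GRCm38, cells were filtered and clustered with Seurat 3, and contaminating clusters were removed. Whether counting used the strand is not given in the sources used here. The deposited table holds UMI counts per gene and cell, not normalized, and the deposited cell table gives replicate, genotype, cell type, a doublet call (100% singlets) and the percent of mitochondrial UMIs (the authors' value, at most 9.99). A further 10 of its columns were not used. No row lacked a gene name. All 613 cells of eNOS+/+ replicate 2 carry the name of eNOS+/+ replicate 1 in a second column of library names. The replicate column was used, which matches the 6 barcode suffixes.

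UMIs were summed by cell type and replicate (10 cells or more), and CPM was taken of each sum. Genotypes were compared with edgeR 4.0.16 in R 4.3.3 (filterByExpr, TMM, quasi-likelihood F test, at least 2 sums per genotype, Benjamini-Hochberg limit 0.05 over all genes tested in a type). DESeq2 1.42.0 was an alternative, and Python 3.11.15 gave levels and exact permutation tests. SEs of log2 fold changes are the fold change over the root of F, and 95% intervals use t quantiles. The fits were tested on simulated data with 200 of 20822 genes changed by a log2 size of 2. Of the changed genes that passed the filter, edgeR called 190 of 198 in all ECs, 186 of 195 in Tip ECs, 69 of 182 in Mural cells and 36 of 182 in Rods. False calls numbered 5, 8, 1 and 0, respectively. No smaller change was simulated, so recovery at the sizes seen for the members in ECs was not measured. Log2 ratios between types used a pseudocount of 10 CPM and are understated for low genes. Counting limits for a level of 0 use 3 UMIs. The depth per sum ran from 5178 to 2425603 UMIs.

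The 10 genes and the other lists were chosen with earlier results of these data known. An entry of these lists is not reported here. Genes named outside the lists were those called in all ECs and 3 of those called in Optc+ cells. Named list genes were the most abundant of each list and those that a count includes. Vegfa, Slc2a1, Ldha, Adm and Cited2 were set by name, whatever their abundance. The most alike genes were the top 3 by Pearson's r among genes of at least 50 CPM over sums of at least 10000 UMIs.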

Additional observations from a re-analysis of the deposited data

Results flagged for a closer look

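Ankrd37 had groups that did not overlap in opposite directions in 2 cell types. The mean level of eNOS-/- minus eNOS+/+ was 58.1 CPM in Mural cells and -78.2 CPM in Tip ECs. The difference between the cell types was not tested. The eNOS+/+ Mural sums held 1 UMI of Ankrd37 each. The sum left out for its 3 cells (eNOS+/+ replicate 1) stood at 88.3 CPM, within the eNOS-/- range, but that value was also 1 UMI, among 11323. Ankrd37 did not pass the filter on low counts in Mural cells. Samples far from their group were not looked for, since groups held 3 samples.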

How the results depend on the processing

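No member was called in the 101 alternatives, over 10 cell groups, in which at least 1 member could be tested, each replicate left out included, and in 19 further alternatives no member passed the filter, so that their count of 0 says nothing. For the summed targets, 153 of 163 alternatives stayed within 1 SD of the mean. Those with 1 replicate left out could not do otherwise, since leaving out 1 value moves a mean by less than 1 SD. Without Ankrd37 the sum was 47.0 CPM in all ECs, 79.7 in the Tip, 41.2 in the Structural and 22.6 in the Proliferative type, 285 in Neuroglia and 498 in Neurons. Without Bnip3 it was 526 CPM in Neurons, and without Ndrg1 122 CPM in Rods and 116 CPM in Optc+ cells. With equal weight of cells it was 694 CPM in Neuroglia. The Tip over Structural log2 ratio of Arnt was -0.32 with equal weight of cells, and the other 109 alternatives stayed within 1 SD. Those with 1 replicate left out again could not do otherwise. Of 176 alternative log2 fold changes, 11 changed sign, none past the threshold. Hif1a in Tip ECs was 0.041 with no filter on low counts. With each replicate left out, log2 fold changes ranged from -0.048 to 0.21 for Arnt, -0.53 to 0.19 for Ndrg1 and -0.23 to 0.40 for Ankrd37 in all ECs, and from -0.16 to 0.14 for Hif1a and -0.13 to 0.39 for Egln1 in Tip ECs. The causes were not tested.

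Same-numbered replicates correlated at 0.13, -0.07 and 0.11 over 9483 genes, and those of unlike number at -0.17 to 0.13. With 3 replicates per genotype, these values cannot decide whether the numbers pair the samples. With a replicate block, 0 members were called in any type, and the genes called rose from 2 to 11 in Structural ECs, from 1 to 3 in Proliferative ECs, from 0 to 1 in Mural cells and Neuroglia and from 0 to 2 in Immune cells, and fell from 23 to 2 in Optc+ cells and from 1 to 0 in Rods. Over all genes, the count called in all ECs was 2, against 3 with DESeq2, 84 with no filter and 78 without eNOS-/- replicate 3. The last setting gave 25 in Tip, 28 in Structural and 73 in Proliferative ECs, against 1, 2 and 1. The causes were not tested. Cells of at least 500 UMIs gave too few sums for Immune cells and Rods, as did sums of at least 10000 UMIs, chosen after seeing the data, for Immune cells. Cones had 1 sum and no test. Depth limits members outside ECs, where 0 to 4 could be tested per type.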
